A study of Mus musculus with 9 samples.

Results

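Libraries of fibroblasts overexpressing Zscan4f were compared with libraries overexpressing Zscan4f3A, a variant of the same gene by its label. The comparison holds 6 of the 9 libraries of the series, 3 with Zscan4f and 3 with Zscan4f3A, chosen by their titles, and the 3 remaining libraries are controls. Every library holds total RNA of primary fibroblasts from C57BL/6 mouse embryos. The cells carry the label D4-OSKM-2ndMEFs, so the 4 reprogramming factors are named in every group, control included. The control titles name no overexpressed gene and no empty vector. The sources used here do not give which residues the variant changes, how each gene was delivered or what D4 stands for. Nothing says that replicates came from separate cultures, so the p-values measure only how far these samples spread, which may be technical.

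Zscan4f is 1 of a cluster of related genes that encode a SCAN domain, through which such proteins bind partners, followed by zinc fingers that bind DNA. The mouse genes are known for a short burst of expression at the two-cell stage and in rare embryonic stem cells. OSKM stands for Oct4 (Pou5f1), Sox2, Klf4 and Myc, which together turn fibroblasts into pluripotent stem cells, with an early loss of fibroblast genes and a gain of epithelial ones known as the mesenchymal-to-epithelial transition. The title of the series names an interaction of Tet2, an enzyme that oxidises 5-methylcytosine, with the SCAN domain. Setting the variant beside Zscan4f asks which expression differences go with the change in the protein.

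Levels are given as TPM, a transcript share corrected for gene length and library total, and differences as log2 fold changes of TPM + 1, Zscan4f minus Zscan4f3A. Depth, estimated as aligned sequence, was 7.48 to 8.39 gigabases with Zscan4f and 6.93, 8.38 and 3.31 with Zscan4f3A (exact two-sided permutation test, p = 0.3, where 0.1 is the smallest p that 3 against 3 libraries allow). Zscan4f3A replicate 3, the shallow library, also had the lowest weight when libraries were weighted by quality (0.413, against 0.994 to 1.36 in the other 8). Counts of called genes are therefore given with and without it, and values written with ± are the mean and SD of the 3 libraries of a group (n = 3). The files hold no counts, so the fragments behind a single value are unknown and the SD of 3 libraries stands for its precision.

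Transcripts assigned to Zscan4f were abundant with either form. Protein was not measured. Zscan4f (ENSMUSG00000070828.10, chromosome 7, 11397915 to 11402318, plus strand; coordinates on GRCm38 throughout) stood at 570.0, 565 and 558 TPM when Zscan4f was overexpressed, 827, 836 and 654 when Zscan4f3A was, and 0.330, 0 and 0.960 in control. The 3 Zscan4f3A libraries all lay above the 3 Zscan4f libraries, but the log2 fold change of -0.44 with an SE of 0.21 and an adjusted p of 0.202 did not pass the test across genes. It passed under 2 of the alternatives run, with an adjusted p of 0.0324 when limma was fitted to these 2 groups alone and 0.0347 on FPKM. Without the shallow library it was -0.56 (adjusted p = 0.164).

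The neighbouring genes of the cluster are close to Zscan4f in sequence, and reads of one can be assigned to another. Zscan4c was listed at 117, 118 and 113 TPM with Zscan4f, against 188, 191 and 0 with Zscan4f3A. Zscan4d held 15.3, 13.97 and 13.9 against 24.9, 26.1 and 0 TPM, and Zscan4e 16.6, 19.04 and 15.6 against 35.2, 38.3 and 0. The shallow library was thus listed at 0 for all 3, and the sign of their differences turned on it: with it the log2 fold changes were 1.82, 0.79 and 0.68 with no call, and without it -0.70 (adjusted p = 0.0123), -0.79 (0.00128) and -1.07 (0.000969). Summed over Zscan4a to Zscan4f, the level was 725, 721 and 709 TPM with Zscan4f and 1076, 1108 and 654 with Zscan4f3A (exact two-sided permutation test, p = 0.4, or 0.2 without the shallow library, the smallest that 3 against 2 allow). Values per gene do not tell RNA of the introduced gene from RNA of the cell's own copies.

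**Figure D1:**
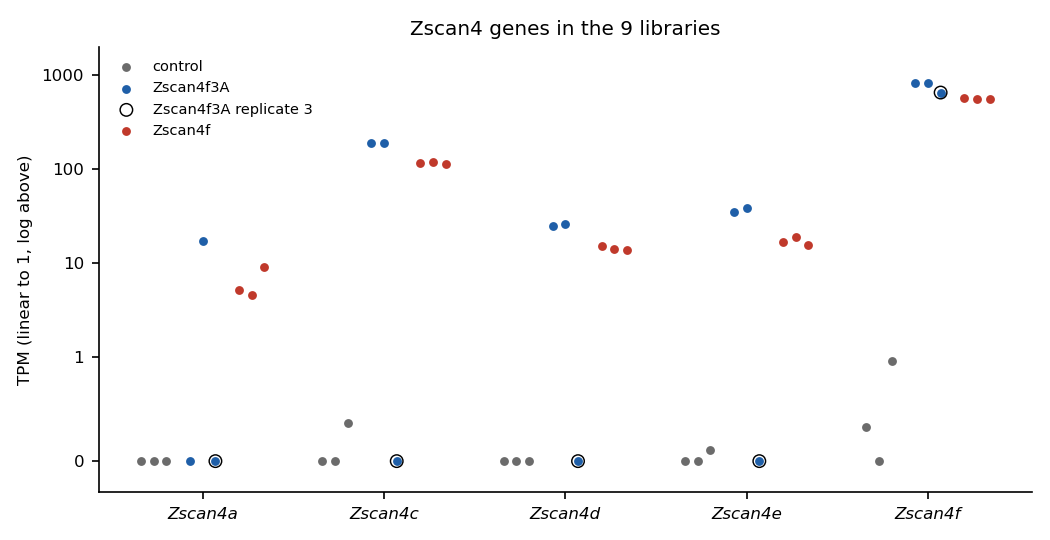
TPM of 5 Zscan4 genes (linear to 1 and logarithmic above) in each of the 9 libraries, by group, with the shallow library Zscan4f3A replicate 3 ringed. The Zscan4f3A libraries lie above the Zscan4f libraries for Zscan4f, and the shallow library is listed at 0 for Zscan4a, Zscan4c, Zscan4d and Zscan4e.

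Across all genes, libraries with Zscan4f differed from those with Zscan4f3A, and in some gene lists most tested members were called. They were called higher in the kallikrein, epithelial junction, cornified envelope, cholesterol and tubulin lists, and lower in the elastic fibre and collagen lists. Some of these majorities rested on single libraries. With 1 library left out, the lowest counts were 5 of 13 for cornified envelope, 12 of 27 for cholesterol, 5 of 14 for tubulin and 10 of 23 for collagen genes. By limma, 2395 of 15837 genes were called, that is, had a Benjamini-Hochberg adjusted p under 0.05. Of these, 1185 were higher with Zscan4f (7.48% of the genes tested) and 1210 lower (7.64%). Before adjustment, 4677 genes had a p under 0.05. Without the shallow library 961 were higher (6.07%) and 1026 lower (6.48%), and 1769 genes were called in both fits with the same sign. The number of higher genes also fell to 758 without Zscan4f replicate 1 and to 708 without Zscan4f replicate 3.

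Most of these differences were small. The median size was 0.35 on the log2 scale among higher genes and 0.45 among lower ones, and 73 and 76 genes changed at least 2-fold. At a fold change of at least 1.5 the counts were 275 higher and 382 lower (263 and 366 without the shallow library). Of the 15837 genes tested, the Zscan4f libraries lay wholly above the Zscan4f3A libraries for 2891 and wholly below for 2614. Without the shallow library these numbers were 3701 and 3427. A lack of overlap by itself was thus common. Called genes were spread over the genome: of the genes tested on a chromosome, from 5.04% (chromosome 14) to 10.84% (chromosome 19) were higher, and from 5.42% (chromosome 12) to 9.36% (chromosome 6) lower. The median difference over all genes tested was 0.0021.

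**Figure D2:**
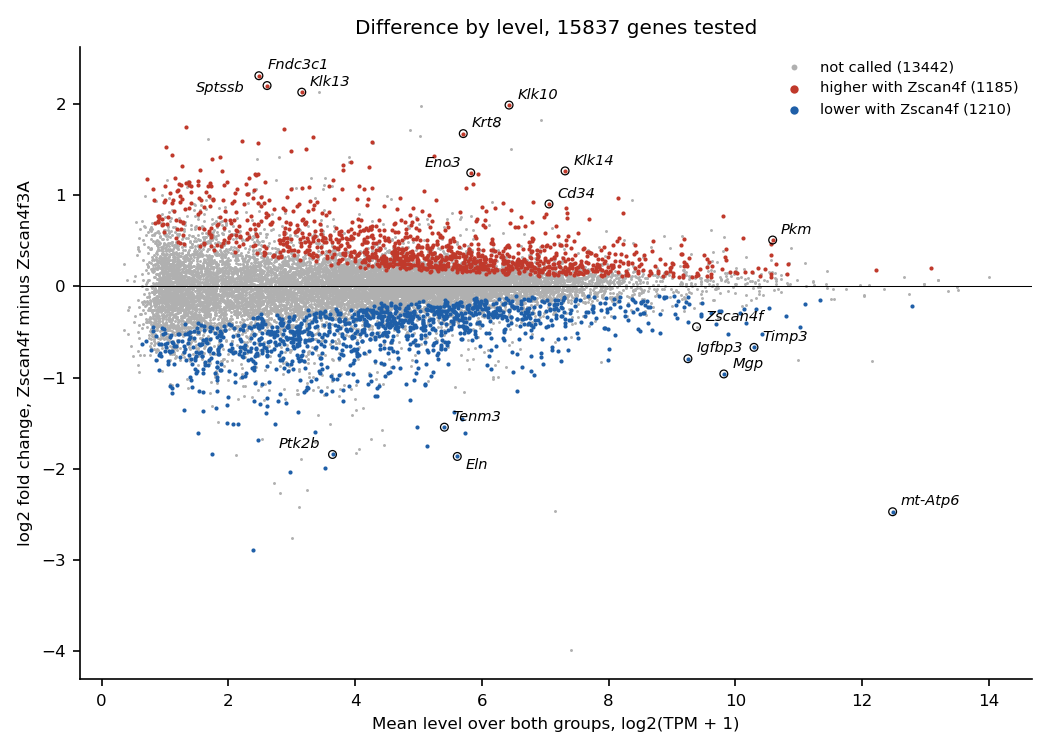
Log2 fold change, Zscan4f minus Zscan4f3A, of each of the 15837 genes tested against its mean level, log2(TPM + 1), over the 6 libraries, with 1185 higher and 1210 lower genes coloured and some named. Krt8 and kallikrein genes are among the highest differences, and mt-Atp6 and Eln among the lowest.

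The kallikrein-related peptidases, secreted serine proteases of skin and glands that act in shedding of the outer skin, had the highest median difference of the 58 gene lists examined. In their list 5 of 6 tested members were higher and 0 lower (5 and 0 without the shallow library), with a median log2 fold change of 1.27, beside 0.0021 over all genes. Klk10 (ENSMUSG00000030693.10, chromosome 7, 43781035 to 43785410, plus strand) was at 128, 140.4 and 141 TPM with Zscan4f, 33.8, 33.8 and 33.4 with Zscan4f3A and 26.7, 26.4 and 27.6 in control. The groups did not overlap, and the log2 fold change was 1.99 with an SE of 0.05 and an adjusted p of 4.93e-07. Klk14 (ENSMUSG00000044737.6, chromosome 7, 43690418 to 43695536, plus strand) was at 218, 226 and 227 TPM with Zscan4f, 94.5, 92.0 and 90.8 with Zscan4f3A and 71.6, 69.8 and 70.9 in control, a log2 fold change of 1.26 with an SE of 0.03 and an adjusted p of 4.93e-07. For Klk14 the variant libraries stood between the other groups, above every control library.

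Of the weaker members of the family that were tested, all but Klk8 were higher too. Klk13 was at 12.8, 12.6 and 15.2 TPM with Zscan4f and 1.88, 2.53 and 2.58 with Zscan4f3A, a log2 fold change of 2.13 with an SE of 0.15 and an adjusted p of 5.51e-05. Klk11 was at 4.92, 4.21 and 3.74 against 1.22, 0.968 and 1.40 TPM (1.27, adjusted p = 0.00571). Klk15, low at 2.01, 2.67 and 2.35 against 0.464, 0.956 and 1.17 TPM, was the fifth gene called, with an adjusted p of 0.0261 that rose to at most 0.0891 without Zscan4f replicates 1, 2 or 3 or Zscan4f3A replicates 1 or 2. Klk8 stood at 9.39, 11 and 10.8 against 9.88, 10.2 and 9.97 TPM (adjusted p = 0.762). Spink6 (serine peptidase inhibitor, Kazal type), known to inhibit kallikrein-related peptidases, was also higher, at 9.07, 12.2 and 10.6 against 2.79, 4.17 and 2.67 TPM. In bulk RNA a larger share of cells of one kind and more RNA per cell cannot be told apart, here and for the cell type genes that follow.

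The 6 tested kallikrein genes lie on the plus strand within 249 kb of chromosome 7, and none of their tested neighbours was called. Counting 200 kb to either side, 5 other genes were tested, and 0 of them were called higher and 0 lower by limma. RP23-298C3.10, inside the Klk14 gene model on the same strand, had a log2 fold change of 0.65 with an adjusted p of 0.0812. Kallikrein genes of the stretch that were too low to be tested reached at most 1.97 TPM.

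**Figure D3:**
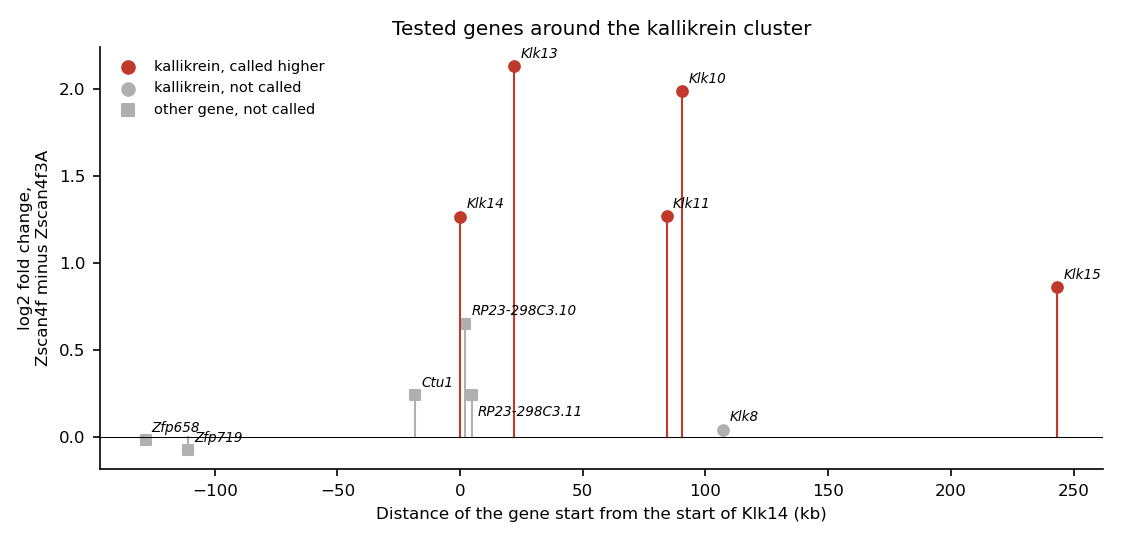
Log2 fold change, Zscan4f minus Zscan4f3A, of the 11 tested genes in and around the kallikrein cluster against the distance of their start from the start of Klk14 (kb), with red for called and grey for not called. The 5 called genes, all kallikreins, are interspersed with Klk8, at 0.04, and with 2 loci that have no gene name.

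The promoters of 3 neighbours that rose together are shown beside that of Islr, a gene of stromal cells that fell, which was chosen after the data were seen because its window holds TGCACAC. They are the 250 bases before the RefSeq start (GRCm38.p6), 5′ to 3′ on the strand of the gene. Capitals mark any match, on either strand, to 6 motifs. TGCACAC is part of the motif known for ZSCAN4, and the shorter motif TGTGCA overlaps it on the other strand. The repeat CACACA can overlap it as well. The others are common promoter elements, namely the cyclic AMP response element TGACGTCA, the GC box with core GGGCGG and the CCAAT box.
Klk14, chr7:43690168-43690417 (+): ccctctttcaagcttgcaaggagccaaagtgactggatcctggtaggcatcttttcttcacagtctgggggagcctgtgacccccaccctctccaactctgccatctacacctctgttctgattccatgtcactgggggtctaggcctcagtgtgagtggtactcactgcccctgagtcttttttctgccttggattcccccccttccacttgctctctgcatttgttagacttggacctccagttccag
Klk13, chr7:43712317-43712566 (+): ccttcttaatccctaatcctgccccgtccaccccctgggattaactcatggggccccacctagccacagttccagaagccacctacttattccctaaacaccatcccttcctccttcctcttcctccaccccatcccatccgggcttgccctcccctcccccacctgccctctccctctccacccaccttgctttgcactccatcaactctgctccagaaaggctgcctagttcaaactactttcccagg
Klk10, chr7:43780804-43781053 (+): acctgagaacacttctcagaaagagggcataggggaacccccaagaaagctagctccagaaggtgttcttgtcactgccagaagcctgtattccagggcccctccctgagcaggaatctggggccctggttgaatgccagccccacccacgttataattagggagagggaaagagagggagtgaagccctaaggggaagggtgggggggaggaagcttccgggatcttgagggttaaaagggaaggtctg
Islr, chr9:58158555-58158804 (-): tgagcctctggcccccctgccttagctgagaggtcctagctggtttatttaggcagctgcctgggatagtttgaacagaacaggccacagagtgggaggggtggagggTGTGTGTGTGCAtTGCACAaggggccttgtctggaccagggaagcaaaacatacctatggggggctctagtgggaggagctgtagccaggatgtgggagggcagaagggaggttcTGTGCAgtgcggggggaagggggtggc

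None of the 6 motifs occurs in the 3 kallikrein windows, while the Islr window holds TGCACAC once, on the opposite strand and starting 137 bases before the start site, with TGTGCA and CACACA. Islr was at 0.388, 0.318 and 0.700 TPM with Zscan4f and 3.91, 3.84 and 4.97 with Zscan4f3A, a log2 fold change of -1.84 with an SE of 0.13 and an adjusted p of 6.83e-05, though exons of Islr2 overlap it on the same strand. Counted over promoter entries of the same length, TGCACAC was present in 2.45% of 1061 entries of higher genes, 5.44% of 1121 of lower genes, 2.99% of 10384 of tested genes not called and 3.67% of all 32851. The same shares were 9.80%, 13.56%, 10.47% and 12.77% for TGTGCA and 11.40%, 16.06%, 13.47% and 17.89% for CACACA. They were 1.60%, 2.05%, 2.74% and 1.55% for TGACGTCA, 58.34%, 53.79%, 57.92% and 32.74% for GGGCGG and 38.36%, 30.69%, 35.36% and 33.85% for CCAAT. The median GC content of the entries was 60.0%, 59.6%, 60.0% and 52.4%. Of the 33 genes with the largest differences named by the rule 26 had an entry, and 0 of these held TGCACAC. These are counts of letters, with no test and no evidence of binding.

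Genes of epithelial junctions and identity were higher with Zscan4f. In that list 21 of 30 tested members were higher and 1 lower (18 and 1 without the shallow library), with a median log2 fold change of 0.63. Dsp, the desmosomal linker desmoplakin (ENSMUSG00000054889.10, chromosome 13, 38151294 to 38198577, plus strand), was at 117, 107 and 113 TPM with Zscan4f, 63.7, 61.2 and 62.9 with Zscan4f3A and 57.6, 58.2 and 60.9 in control, a log2 fold change of 0.83 with an SE of 0.05 and an adjusted p of 1.66e-05. Its partners in desmosomes moved alike: Dsg2, a desmosomal cadherin, was at 4.16, 3.66 and 3.69 against 0.962, 0.877 and 0.680 TPM, and Pkp2, a plakophilin, at 9.93, 9.29 and 10.04 against 3.94, 4.47 and 3.97. St14, the membrane protease matriptase, was at 10.7, 11.5 and 11.2 against 4.80, 5.36 and 4.14 TPM (log2 fold change 1.08, adjusted p = 0.000268). The defining surface genes were called as well: Cdh1 (E-cadherin) stood at 21.7, 23.5 and 21.1 against 14.2, 15.1 and 15.8 TPM and Epcam at 5.92, 7.25 and 6.43 against 2.16, 2.06 and 2.41. Cldn1, a claudin of tight junctions, was the 1 lower member. Summed, the list reached 742, 740 and 753 TPM with Zscan4f, 561, 550 and 576 with Zscan4f3A and 541, 552 and 543 in control (exact two-sided permutation test of Zscan4f against Zscan4f3A, p = 0.1, the smallest possible).

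Keratins, the intermediate filament proteins of epithelial cells, were called in both directions, beside 7.48% higher and 7.64% lower over all genes. Of the keratins of simple epithelia 2 higher and 0 lower of 4 (1 and 0) were called, the counts in parentheses being those without the shallow library. Krt8 (ENSMUSG00000049382.10, chromosome 15, 101996698 to 102004482, minus strand) was at 80.0, 79.1 and 76.4 TPM with Zscan4f, 23.3, 23.6 and 24.9 with Zscan4f3A and 21.4, 18.96 and 20.3 in control, a log2 fold change of 1.67 with an SE of 0.05 and an adjusted p of 1.73e-06. Its usual partner Krt18 was at 3.10, 4.57 and 3.114 against 1.88, 1.89 and 1.32 TPM, with an adjusted p of 0.0228 that rose to 0.0625 without the shallow library and to 0.0723 without Zscan4f replicate 2. Those of stratified epithelia numbered 5 higher and 2 lower of 11 (5 and 2). Krt14, of basal epidermis, was at 82.6, 83.4 and 90.0 against 34.3, 35.6 and 37.8 TPM, and Krt80 at 58.2, 52.1 and 52.5 against 18.7, 20.8 and 19.2. Krt17 and Krt16, keratins of activated epidermis, were at 12.9 ± 1.31 against 6.31 ± 0.582 TPM and 95.9 ± 1.54 against 70.3 ± 4.53 TPM. Krt1 and Krt79 were lower. Krt5, the usual partner of Krt14, stayed low at 0.416, 0.628 and 0.686 against 0.990, 0.971 and 0.868 TPM (adjusted p = 0.155), and Trp63, a regulator of basal epidermis, was too low to be tested. Over all lists, of 64 counts of 3 or fewer called members, 37 moved by up to 2 when a library other than the shallow one was left out, so such counts are given as they stand.

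Cornified envelope genes, which build the hard outer layer of skin cells, were called higher in 7 of 13 tested members and lower in 0 by limma (6 and 0 without the shallow library). Cdsn, the adhesive protein corneodesmosin, was at 43.3, 41.4 and 45.9 TPM with Zscan4f and 25.5, 28.0 and 28.4 with Zscan4f3A, a log2 fold change of 0.65 with an SE of 0.07 and an adjusted p of 0.000422. Sprr1a, a small proline-rich protein, was at 14.8, 18.1 and 16.3 against 7.42, 7.83 and 5.18 TPM. Tgm3, a transglutaminase that cross-links such proteins, was at 10.8, 11.4 and 11.4 against 8.21, 7.03 and 6.80 TPM. Sprr2a1 and Sprr2a2 were called higher too, but their exons overlap and their sequences are nearly the same, so reads may be split between them. The call of Sprr2a2 ended without Zscan4f replicates 1 or 3 or Zscan4f3A replicate 2 (adjusted p up to 0.0638).

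**Figure D4:**
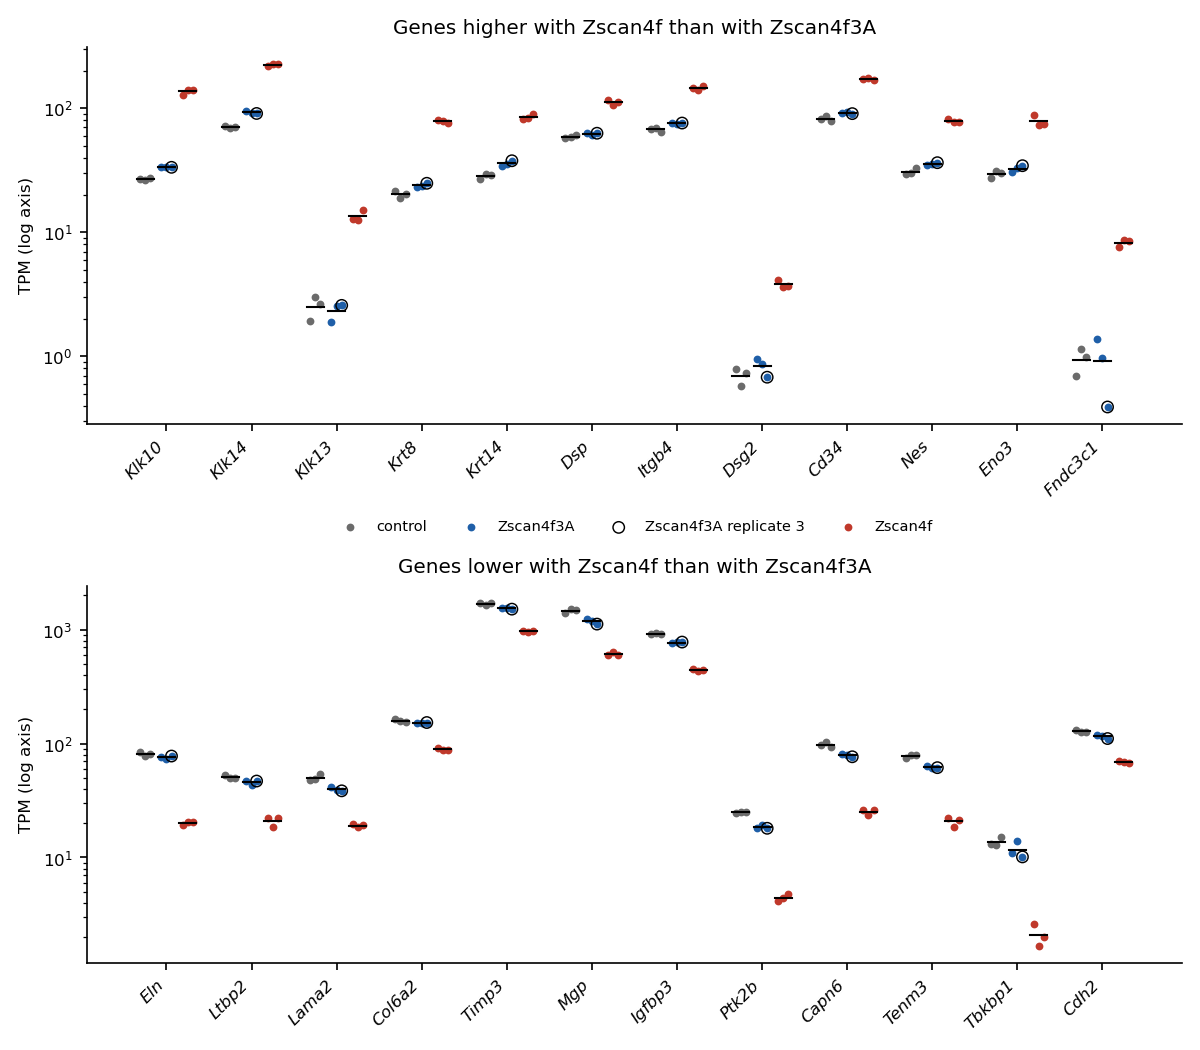
TPM on a log axis of 12 genes higher and 12 genes lower with Zscan4f than with Zscan4f3A in each library of the 3 groups, with a bar at each group mean and the shallow library ringed. The Zscan4f libraries stand apart from both other groups in all 24 genes, picked for the plot after their values were seen.

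Other genes with the largest rises had varied roles. Fndc3c1, an X-linked gene of a fibronectin type III domain protein (ENSMUSG00000033737.14, chromosome X, 106420041 to 106485401, minus strand), was at 7.65, 8.64 and 8.49 TPM with Zscan4f and 1.37, 0.974 and 0.391 with Zscan4f3A, the highest log2 fold change by the rule, 2.31 with an SE of 0.19 and an adjusted p of 0.000173. Sptssb, a small subunit of serine palmitoyltransferase at the entry of sphingolipid synthesis, was at 9.52, 9.07 and 8.47 against 1.65, 1.01 and 0.941 TPM (2.20, adjusted p = 3.08e-05). Lrrc26, an auxiliary subunit of potassium channels, was at 9.19, 11.8 and 9.61 against 2.33, 3.23 and 1.72 TPM. Entpd1 (CD39), which removes phosphates from extracellular ATP, was at 12.5, 12.2 and 13.8 against 3.96, 4.57 and 3.13 TPM (1.51, adjusted p = 0.000173). The enzyme that acts after it, Nt5e (CD73), which makes adenosine, moved the opposite way, at 2.25, 2.20 and 2.96 against 9.59, 8.51 and 8.38 TPM (-1.51, adjusted p = 9.37e-05).

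Secreted and signalling genes were among the rest of the largest rises. Fgf3, a secreted fibroblast growth factor, was at 25.4 ± 2.09 against 9.70 ± 1.32 TPM, and Gpr50, an orphan relative of the melatonin receptors, at 19.1 ± 1.80 against 7.09 ± 1.65 TPM. B3gnt3, a glycosyltransferase, was at 5.94 ± 0.613 against 1.33 ± 0.448 TPM, and Ccdc141, a coiled-coil protein, at 21.04 ± 1.84 against 7.55 ± 0.322 TPM. Ly6g6c, of the Ly6 family, and Tac1, the precursor of substance P, were spread more widely within the Zscan4f group, at 8.07, 16.9 and 18.2 and at 6.57, 10.8 and 4.64 TPM against 3.31, 3.67 and 4.10 and 2.04, 1.54 and 1.51 with Zscan4f3A.

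Elastic fibres, which let tissue recoil, are built from elastin on a scaffold of fibrillin, and their genes were mostly lower with Zscan4f. In the list 3 of 21 tested members were higher and 13 lower (3 and 12 without the shallow library), with a median log2 fold change of -0.29. Eln, elastin itself (ENSMUSG00000029675.12, chromosome 5, 134702593 to 134747323, minus strand), was at 19.3, 20.6 and 20.3 TPM with Zscan4f, 76.4, 73.0 and 77.8 with Zscan4f3A and 84.8, 78.6 and 80.6 in control. No library of the groups overlapped, and the log2 fold change was -1.86 with an SE of 0.05 and an adjusted p of 4.93e-07. Ltbp2, which binds fibrillin, was at 22.1, 18.6 and 22.3 against 46.8, 43.0 and 46.9 TPM (-1.09, adjusted p = 5.44e-05). The cross-linking enzymes Loxl1 and Loxl2 were at 73.0, 72.1 and 77.0 against 137, 142 and 146 and at 148, 147 and 145 against 220.3, 214 and 219 TPM. Fbn1 (fibrillin 1), Lox, another cross-linking enzyme, and Ltbp1 were the 3 higher members, of which Ltbp1 lost its call without Zscan4f replicates 1 or 3 or Zscan4f3A replicate 2 (adjusted p up to 0.084).

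Collagen chains were lower more often than higher. Of the list 2 of 23 tested members were higher and 14 lower (2 and 13 without the shallow library), with a median log2 fold change of -0.18, beside shares of 7.48% and 7.64% for all genes. Col6a2, a chain of the microfibrillar collagen VI (ENSMUSG00000020241.13, chromosome 10, 76595762 to 76623630, minus strand), was at 91.5, 87.2 and 88.4 TPM with Zscan4f and 151, 153 and 153 with Zscan4f3A, a log2 fold change of -0.77 with an SE of 0.03 and an adjusted p of 5.71e-06. Col6a1, its partner, was at 201, 204 and 205 against 281, 278 and 281 TPM. Col16a1 and Col5a1, associated with the surface and the nucleation of fibrils, were at 22.6, 24.4 and 23.9 against 47.7, 44.8 and 50.6 and 368, 367 and 376 against 527, 524 and 528 TPM. The 2 chains of collagen I, the main fibril of connective tissue, moved apart: Col1a1 was at 2399, 2468 and 2479 against 2707, 2706 and 2761 TPM and Col1a2 at 5091, 5015 and 5043 against 4447, 4377 and 4509. For Col1a1 the call was lost with no filter on low values, with quantile normalization and with no trend of the prior variance (adjusted p up to 0.354), and for Col1a2 with quantile normalization (0.0507).

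Genes that remodel the matrix were called in both directions: of the matrix proteases and inhibitors 3 of 22 tested members were higher and 9 lower (3 and 9 without the shallow library), with a median log2 fold change of -0.06. Over all genes 7.48% were higher and 7.64% lower. Timp3 (ENSMUSG00000020044.13, chromosome 10, 86300372 to 86349506, plus strand), an inhibitor of metalloproteinases held in the matrix, was at 979, 954 and 971 TPM with Zscan4f and 1557, 1544 and 1517 with Zscan4f3A, a log2 fold change of -0.67 with an SE of 0.03 and an adjusted p of 3.97e-06. Timp2 was at 989.8 ± 13.7 against 1304 ± 21.9 TPM, Serpine2, an inhibitor of thrombin, at 779 ± 5.45 against 1116 ± 19.1 TPM, and the gelatinase Mmp2 at 111 ± 8.08 against 182 ± 8.98 TPM. The collagenase Mmp13 and the aggrecan-cleaving Adamts4 were higher, with Mmp23.

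Laminins and integrins, receptors for proteins of the matrix, were called in both directions by chain. Of 11 laminin genes 2 were higher and 3 lower (2 and 3), beside 7.48% and 7.64% of all genes. Lama5 and Lama3, chains of epithelial basement membranes, were at 77.6, 70.8 and 77.6 against 45.5, 42.1 and 46.2 and 18.9, 17.0 and 18.7 against 11.4, 11.1 and 9.97 TPM. Lama2, the chain of muscle and nerve, was at 19.5, 18.5 and 19.2 against 41.4, 39.4 and 38.5 TPM, a log2 fold change of -1.02 with an SE of 0.06 and an adjusted p of 2.4e-05, and Lamc3 was lower too. Among integrins 6 higher and 3 lower of 18 (3 and 3) were called. Itgb4, the subunit of hemidesmosomes that binds laminin (ENSMUSG00000020758.15, chromosome 11, 115974709 to 116008412, plus strand), was at 144, 141 and 150.4 against 76.5, 75.1 and 76.0 TPM (0.93, adjusted p = 5.71e-06), and Itga3 at 8.41, 8.31 and 8.99 against 4.38, 4.33 and 4.34. Itga9 and Itga4 were at 9.96 ± 0.836 against 15.9 ± 0.625 TPM and 5.82 ± 0.384 against 9.13 ± 0.284 TPM. Of the kinases and adaptors of focal adhesions 1 higher and 3 lower of 18 (1 and 4) were called: Ptk2b, a relative of focal adhesion kinase (ENSMUSG00000059456.13, chromosome 14, 66153257 to 66281052, minus strand), was at 4.17, 4.40 and 4.79 TPM with Zscan4f, 18.3, 19.3 and 18.1 with Zscan4f3A and 24.6, 25.1 and 24.9 in control, a log2 fold change of -1.84 with an SE of 0.06 and an adjusted p of 2.09e-06. Bcar1, a scaffold of adhesions, was at 97.1, 99.2 and 101 against 85.2, 82.0 and 83.1 TPM. With single libraries left out, higher members of the integrins list numbered 3 instead of 6 without Zscan4f replicate 1 or Zscan4f3A replicate 2.

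Fibroblast genes did not move as 1 block. In the identity list 5 of 28 tested members were higher and 12 lower (5 and 12 without the shallow library), with a median log2 fold change of -0.10. Over all genes 7.48% were higher and 7.64% lower. Cdh2 (N-cadherin) was at 70.6, 68.8 and 68.1 TPM with Zscan4f and 119.6, 118 and 111 with Zscan4f3A, a log2 fold change of -0.74 with an SE of 0.04 and an adjusted p of 1.65e-05. Fstl1, a secreted glycoprotein, was at 1145, 1094 and 1128 against 1643, 1613 and 1591 TPM, and Postn, periostin, at 622, 617 and 635 against 779.5, 783 and 791. Cd34, a surface sialomucin of stromal and progenitor cells (ENSMUSG00000016494.9, chromosome 1, 194938819 to 194961279, plus strand), went the other way, at 172, 177 and 169 against 91.5, 93.8 and 90.5 TPM (0.90, adjusted p = 5.71e-06), as did Dcn (decorin), at 1752, 1767 and 1750.0 against 1326, 1300.0 and 1206, and Pdgfra, at 26.6, 24.5 and 26.6 against 19.6, 20.8 and 19.3, while Pdgfrb was lower. Thy1, a defining fibroblast surface marker, stood at 229, 226 and 225 against 227, 219 and 224 TPM (adjusted p = 0.695). The summed level of 12 defining fibroblast markers was 14583, 14625 and 14447 TPM with Zscan4f and 14702, 14734 and 14408 with Zscan4f3A (exact two-sided permutation test, p = 0.6). That sum joins opposite changes: Col1a2, Dcn, Pdgfra and Prrx1 were called higher and Col1a1, Vim, Fn1, Postn and Pdgfrb lower. Fn1, fibronectin, was at 1680, 1540 and 1500 against 1990, 2030 and 1910 TPM (adjusted p = 0.0114). Vim (adjusted p = 0.0397) lost its call under 11 of 23 alternatives. Of the mesenchymal transcription factors 1 higher and 1 lower of 15 (1 and 1) were called, Prrx1 higher and Meox2 lower, shares near those over all genes.

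Contractile genes of smooth muscle and myofibroblasts were lower in 8 of 22 tested members and higher in 2 (7 and 2 without the shallow library). Over all genes 7.64% were lower and 7.48% higher, so the higher share was near that of all genes. Actg2, the smooth muscle gamma actin, was at 94.5, 111 and 108 against 169, 159 and 183 TPM, and Tagln (transgelin) at 443, 490.2 and 489 against 604, 616 and 583. Tpm2, a tropomyosin, was at 209.5, 209.6 and 199 against 289, 280.5 and 280.0 TPM, a log2 fold change of -0.46 with an SE of 0.03 and an adjusted p of 7.4e-05. Ctgf, a matricellular factor made by such cells, was at 330.5, 339 and 347 against 454, 450.5 and 444 TPM. Cnn2, a calponin also made outside muscle, was higher.

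Growth factor pathways were read list by list, beside 7.48% of all genes called higher and 7.64% lower. In the insulin-like growth factor list 1 higher and 5 lower of 15 (0 and 5) were called, the higher share being near that of all genes. Igf1, the ligand, was at 30.6, 29.0 and 25.6 TPM with Zscan4f and 47.1, 48.3 and 49.5 with Zscan4f3A, a log2 fold change of -0.75 with an SE of 0.07 and an adjusted p of 0.000322. Igfbp3, a carrier of the ligand (ENSMUSG00000020427.11, chromosome 11, 7206086 to 7213923, minus strand), was at 453, 438 and 444 TPM with Zscan4f, 759, 776 and 779.5 with Zscan4f3A and 925, 931 and 913 in control, so the variant libraries lay between the other groups (-0.79 with an SE of 0.03 and an adjusted p of 1.73e-06). Igfbp5 and Igfbp7 were at 43.3 ± 2.105 against 60.9 ± 1.68 TPM and 136 ± 9.55 against 169.7 ± 7.14 TPM. Of the Tgf-beta pathway 1 higher and 6 lower of 21 (2 and 5) were called, the higher share with all libraries being below that of all genes. Tgfb3, a ligand, was at 29.4, 30.8 and 31.0 against 52.1, 49.6 and 46.4 TPM, Smad3, a signal transducer, at 21.8 ± 0.259 against 28.4 ± 1.36 TPM, Inhba, a subunit of activin, at 34.4 ± 0.348 against 42.7 ± 1.63 TPM and Grem1, an antagonist of Bmp ligands, at 15.4 ± 0.776 against 24.6 ± 1.35 TPM.

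In the Wnt list 4 higher and 7 lower of 32 (3 and 6) were called, beside 7.48% and 7.64% of all genes. Among them were ligands, receptors, secreted modulators and intracellular members. Sfrp2, which binds Wnt ligands, was at 75.7, 81.2 and 82.6 against 131, 129 and 148 TPM, and its relative Sfrp1 moved the opposite way, at 69.2, 69.5 and 68.1 against 51.4, 52.6 and 51.1. Nkd2, an inhibitor of the pathway in the receiving cell, was at 22.8 ± 1.95 against 11.9 ± 1.45 TPM, and Dkk3, a secreted relative of Dkk1, at 31.5 ± 0.555 against 41.7 ± 1.21 TPM. Among Bmp and Id genes 2 higher and 1 lower of 17 (0 and 1) were called, and only Bmp1, a procollagen protease despite its name, was called in both fits, at 130.2, 138 and 129 against 154, 158 and 162 TPM. Immediate early genes had 1 higher and 3 lower of 15 (1 and 3): Egr1 was at 28.3 ± 1.02 against 34.5 ± 0.691 TPM and Egr2 at 2.65 ± 0.0909 against 4.84 ± 0.298 TPM, transcription factors induced by growth factor signals. None of the 10 AP-1 factors was called by limma in either fit (0 and 0).

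Imprinted genes, expressed from 1 parental copy and known for roles in growth, were lower in 7 of 20 tested members and higher in 1 (7 and 1 without the shallow library), with a median log2 fold change of -0.23. Over all genes 7.64% were lower and 7.48% higher. Slc38a4, an amino acid transporter (ENSMUSG00000022464.14, chromosome 15, 96994820 to 97055956, minus strand), was at 18.9, 12.8 and 13.9 TPM with Zscan4f, 54.1, 51.1 and 52.9 with Zscan4f3A and 38.3, 50.1 and 50.01 in control, a log2 fold change of -1.75 with an SE of 0.15 and an adjusted p of 0.000167. Peg3, a zinc finger gene, was at 47.2, 41.5 and 45.1 against 63.0, 59.6 and 60.8 TPM, and Meg3, a long non-coding RNA, at 87.9, 104 and 79.8 against 166, 159.9 and 128. Ndn was lower as well, with Dlk1, whose row with signal lies on an unplaced scaffold.

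The largest falls outside these lists again had varied roles. Tbkbp1, an adaptor of the kinase Tbk1, was at 2.58, 1.67 and 1.99 TPM with Zscan4f and 11, 13.9 and 10.1 with Zscan4f3A, a log2 fold change of -2.04 with an SE of 0.14 and an adjusted p of 6.27e-05. Nipsnap1, a mitochondrial protein, was at 3.38, 3.92 and 3.48 against 18.04, 14.6 and 19.6 TPM, and Capn6, a calpain that lacks protease activity, at 26.1, 23.5 and 25.9 against 80.5, 78.9 and 76.7. Of the calpain list 0 higher and 2 lower of 9 (1 and 2) were called, beside 7.48% and 7.64% of all genes. The second was Capn5 at 45.6 ± 0.422 against 58.4 ± 1.47 TPM. Tenm3, a teneurin that guides connections between neurons, was at 22.4, 18.6 and 21.2 against 63.6, 61.6 and 61.5 TPM, and Gria1, a subunit of AMPA glutamate receptors, at 1.63, 1.46 and 1.79 against 7.04, 8.29 and 7.001. Vit, the matrix protein vitrin, was at 26.7 ± 1.91 against 74.8 ± 3.29 TPM, Ociad2 at 15.1 ± 1.11 against 45.8 ± 1.39 TPM, Olfml1, a secreted olfactomedin-like protein, at 4.14 ± 0.287 against 14.6 ± 1.30 TPM and Srgap3 at 1.18 ± 0.159 against 5.22 ± 0.328 TPM. Steap3, a reductase of iron and copper, and Erg, an ETS factor, were among the largest falls only in the fit without the shallow library: Steap3 was at 3.51, 3.29 and 3.21 against 11.7, 10.9 and 6.58 TPM and Erg at 0.795, 0.931 and 1.40 against 6.36, 4.89 and 3.36, with log2 fold changes of -1.27 and -1.50 that became -1.51 and -1.70 without it.

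The largest fall by the rule was that of mt-Atp6, a mitochondrially encoded subunit of ATP synthase. It was listed at 1740.0, 1748 and 1746 TPM with Zscan4f, 9619, 9465 and 9947 with Zscan4f3A and 10010.0, 5812 and 7217 in control, a log2 fold change of -2.47 with an SE of 0.16 and an adjusted p of 3.5e-05. Its exon overlaps those of mt-Atp8 and mt-Co3 on the same strand, and the control libraries differed widely among themselves. Of the 12 other mitochondrially encoded protein genes 0 were called (over all 13, 1 higher and 2 lower without the shallow library), and the median of the 13 was 0.01. Whether the values reflect how reads were assigned to overlapping genes was not tested.

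Metabolic pathways differed in how many of their genes were called, beside 7.48% higher and 7.64% lower over all genes. In the cholesterol list 16 of 27 tested members were higher and 1 lower (14 and 1 without the shallow library), with a median log2 fold change of 0.31. Fdps, farnesyl diphosphate synthase (ENSMUSG00000059743.12, chromosome 3, 89093588 to 89101959, minus strand), was at 314, 348 and 324 TPM with Zscan4f and 234, 229.7 and 233 with Zscan4f3A, a log2 fold change of 0.50 with an SE of 0.04 and an adjusted p of 0.000133. Cyp51 and Nsdhl, which remove methyl groups from the sterol ring, were at 124, 119 and 124 against 95.8, 94.4 and 92.0 and 72.1, 73.1 and 73.0 against 53.7, 55.4 and 55.2 TPM. Sqle, a control point of the pathway, was called higher, and Scap, the escort of its transcription factors, was the 1 lower member. Fatty acid synthesis had 5 higher and 1 lower of 15 (4 and 0): the elongase Elovl6 was at 29.8 ± 1.71 against 19.3 ± 1.12 TPM and the desaturase Scd2 at 684 ± 11.3 against 551 ± 9.65 TPM. In sphingolipid synthesis 1 higher and 2 lower of 14 (1 and 2) were called, with the ceramide synthase Cers6 at 12.4, 9.37 and 14.2 against 29.1, 27.8 and 23.6 TPM and Cers4 lower too, beside the rise of Sptssb.

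Glycolytic enzymes, which turn glucose into pyruvate, were higher in 10 of 27 tested members and lower in 1 (10 and 1 without the shallow library), with a median log2 fold change of 0.25. Eno3, the muscle form of enolase (ENSMUSG00000060600.15, chromosome 11, 70657202 to 70662513, plus strand), was at 88.0, 73.8 and 74.4 TPM with Zscan4f, 30.4, 32.9 and 34.4 with Zscan4f3A and 27.3, 30.9 and 29.9 in control, a log2 fold change of 1.24 with an SE of 0.08 and an adjusted p of 4.44e-05. Pkm, pyruvate kinase, was at 1782, 1861 and 1771 against 1243, 1214 and 1354 TPM, Pfkl, the liver form of phosphofructokinase, at 82.1, 83.9 and 83.9 against 57.7, 59.5 and 62.9, and Pgk1, phosphoglycerate kinase, at 463, 464 and 468 against 373, 364 and 332. Ldhb, a lactate dehydrogenase subunit, was the 1 lower member. The pentose phosphate pathway had 4 higher and 0 lower of 10 (3 and 0), with Pgd at 299 ± 4.77 against 246 ± 2.14 TPM. The tricarboxylic acid cycle had 7 higher and 2 lower of 31 (5 and 1): Cs, citrate synthase, was at 317 ± 5.39 against 262 ± 8.15 TPM, Idh2 at 224 ± 8.88 against 177 ± 3.42 TPM, and Pcx, pyruvate carboxylase, at 12.6 ± 0.822 against 16.8 ± 0.222 TPM. Nuclear genes of oxidative phosphorylation had 5 higher and 0 lower of 71 (4 and 1), a share near that of all genes, with Ndufa4 at 1074, 1036 and 1052 against 833, 851 and 702 TPM. Left out one by one, some libraries moved counts by over 1.5 times: higher members of the glycolysis list numbered 6 instead of 10 without Zscan4f replicate 2, and higher members of the pentose phosphate list numbered 2 instead of 4 without Zscan4f replicates 1 or 3. Higher members of the tricarboxylic acid cycle list numbered 3 to 4 instead of 7 without Zscan4f replicates 1, 2 or 3, and higher members of the oxidative phosphorylation list numbered 3 instead of 5 without Zscan4f replicates 1, 2 or 3.

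Genes known to respond to low oxygen were called in both directions, 5 higher and 3 lower of 18 (5 and 4), beside 7.48% and 7.64% of all genes. Egln3, a prolyl hydroxylase that marks hypoxia-inducible factors for decay, was at 83.0, 86.2 and 85.6 against 48.4, 47.6 and 46.2 TPM, a log2 fold change of 0.83 with an SE of 0.04 and an adjusted p of 8.19e-06, and Bnip3, a mitophagy receptor, at 39.6, 38.4 and 40.0 against 28.4, 30.2 and 28.9. Ndrg1 and Mxi1 were at 13.8 ± 0.348 against 19.5 ± 0.770 TPM and 16.5 ± 0.787 against 22.8 ± 1.08 TPM. Amino acid and folate supply genes had 2 higher and 5 lower of 25 (1 and 3), the higher share being near that of all genes. Glul, glutamine synthetase, was at 107 ± 2.87 against 130.4 ± 1.78 TPM and the transporter Slc38a1 at 44.1 ± 2.80 against 31.8 ± 1.11 TPM. These counts rested in part on single libraries: higher members of the hypoxia list numbered 3 instead of 5 without Zscan4f replicate 3, and lower members of the amino acid supply list numbered 2 to 3 instead of 5 without Zscan4f replicates 1 or 3 or Zscan4f3A replicate 2.

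Genes of protein synthesis and breakdown were called higher at different rates from list to list. Of proteasome core and regulatory particle genes 16 of 33 tested members were higher and 0 lower (14 and 0 without the shallow library), with a median log2 fold change of 0.19. Psma1, of the core (ENSMUSG00000030751.18, chromosome 7, 114264606 to 114276118, minus strand), was at 226, 229 and 227 TPM with Zscan4f and 167, 184 and 176 with Zscan4f3A, a log2 fold change of 0.37 with an SE of 0.04 and an adjusted p of 0.000725, and Psmd14, the deubiquitinase of the lid, was at 173, 171 and 171 against 142, 138 and 135. Of 16 tested activators, immunoproteasome and assembly genes 0 were called in either direction by limma (0 and 0 without the shallow library). Translation initiation factors had 13 higher and 0 lower of 38 (10 and 0): Eif2s2, a subunit of the factor that brings the initiator tRNA, was at 217, 221 and 217 against 171, 173 and 149.9 TPM, and the helicase Eif4a1 at 553, 574 and 558 against 496, 465 and 459. Cytosolic ribosomal proteins had 8 higher and 1 lower of 71 (5 and 2), so that most were not called, against 7.48% called higher over all genes. Of these proteins, Rps25 was split in control (211, 345 and 344 TPM) and stood at 399, 364 and 380.2 against 216, 219 and 219. Its exons overlap other genes, and the part of that overlap was not tested. Single libraries mattered here: higher members of the proteasome core list numbered 10 instead of 16 without Zscan4f replicate 3, and higher members of the initiation factor list numbered 7 to 8 instead of 13 without Zscan4f replicates 1, 2 or 3 or Zscan4f3A replicate 2. Higher members of the ribosomal protein list numbered 1 to 5 instead of 8 without Zscan4f replicates 1, 2 or 3 or Zscan4f3A replicate 2.

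Most folding genes were not called, and counts stand beside 7.48% higher and 7.64% lower over all genes. Chaperonins and heat shock proteins had 6 higher and 1 lower of 31 (7 and 1), with Cct3, a subunit of the cytosolic chaperonin, at 244, 248 and 238 against 211, 202 and 202 TPM. The unfolded protein response had 4 higher and 0 lower of 28 (3 and 1), each of the 4 with a log2 fold change under 0.2. Of tubulin isotypes, the subunits of microtubules, 8 of 14 tested members were higher and 0 lower (8 and 0 without the shallow library), with a median log2 fold change of 0.17. Tubb4a, an isotype known from neurons and glia, was at 20.8, 22.2 and 22.4 against 9.22, 9.04 and 10.7 TPM, a log2 fold change of 1.10 with an SE of 0.10 and an adjusted p of 0.000197, while Tubb5, the common isotype, was at 642, 653 and 656 against 566, 569 and 540.5. Without 1 library, counts changed as follows: higher members of the unfolded protein response list numbered 0 to 2 instead of 4 without Zscan4f replicates 1, 2 or 3 or Zscan4f3A replicates 1 or 2, and higher members of the tubulin list numbered 5 instead of 8 without Zscan4f replicates 2 or 3.

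Replication and division genes were called in both directions, by list, beside 7.48% higher and 7.64% lower over all genes. DNA replication genes had 8 higher and 0 lower of 41 (7 and 0) and a median log2 fold change of 0.22. Rrm2 and Rrm1, which make deoxynucleotides, were at 47.5, 46.6 and 44.6 against 34.7, 36.5 and 31.1 and 78.5, 76.5 and 75.1 against 65.3, 67.8 and 63.2 TPM, and Pcna, the sliding clamp, at 129, 126 and 131 against 109.8, 104 and 115. Cell division genes had 8 higher and 2 lower of 33 (6 and 2), with Mki67, a marker of cycling cells, at 18.7, 17.3 and 17.6 against 13.6, 13.8 and 13.4 TPM. The 2 lower ones, a share below that of all genes, were cyclins of early G1: Ccnd2 was at 303, 293 and 292 against 416, 409 and 409 TPM (-0.47, adjusted p = 2.2e-05) and Ccnd1 at 565, 555 and 562 against 644, 630.2 and 616. Histone genes of S phase had 0 higher and 5 lower of 40 (0 and 4). Among p53 targets and inhibitors of the cycle 2 higher and 6 lower of 30 (2 and 3) were called: Cdkn1a (p21) was at 765, 801 and 806 against 961, 945 and 956 TPM, Sesn1, a sestrin induced by stress, at 17.1 ± 0.0375 against 24.7 ± 0.920 TPM and Btg2, an antiproliferative factor, at 88.1 ± 2.24 against 69.4 ± 3.03 TPM. The number called depended on single libraries: higher members of the DNA replication list numbered 5 instead of 8 without Zscan4f replicates 1 or 3, and higher members of the cell division list numbered 2 to 4 instead of 8 without Zscan4f replicates 1, 2 or 3 or Zscan4f3A replicates 1 or 2. Lower members of the histone list numbered 2 to 3 instead of 5 without control replicates 1 or 3 or Zscan4f replicates 2 or 3 or Zscan4f3A replicate 2, and lower members of the p53 target list numbered 3 instead of 6 without Zscan4f replicates 2 or 3.

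Interferon response genes had 12 higher and 3 lower of 38 (11 and 3), the lower share being near the 7.64% over all genes. Ifitm1, a membrane protein that hinders virus entry, was at 161, 155 and 154 against 90.0, 96.9 and 90.9 TPM, a log2 fold change of 0.76 with an SE of 0.04 and an adjusted p of 2.4e-05. The parts of antigen presentation moved apart: H2-D1, a class I heavy chain, was at 241, 250.3 and 255 against 209, 204 and 195 TPM, while its light chain B2m was at 1018, 1018 and 1040.0 against 1250.0, 1254 and 1162. Ifi27 was lower, at 93.9 ± 0.982 against 119.6 ± 3.45 TPM. Of secreted inflammatory factors 4 higher and 2 lower of 21 (4 and 0) were called. Ptgs2 and Ptgs1, the cyclooxygenases of prostaglandin synthesis, were at 73.5, 72.9 and 73.8 against 44.9, 46.2 and 41.8 and 50.5, 51.1 and 54.3 against 37.0, 33.8 and 37.8 TPM, and Ccl2, a chemokine that draws monocytes, at 219.6, 222 and 217 against 146, 152 and 141.

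**Figure D5:**
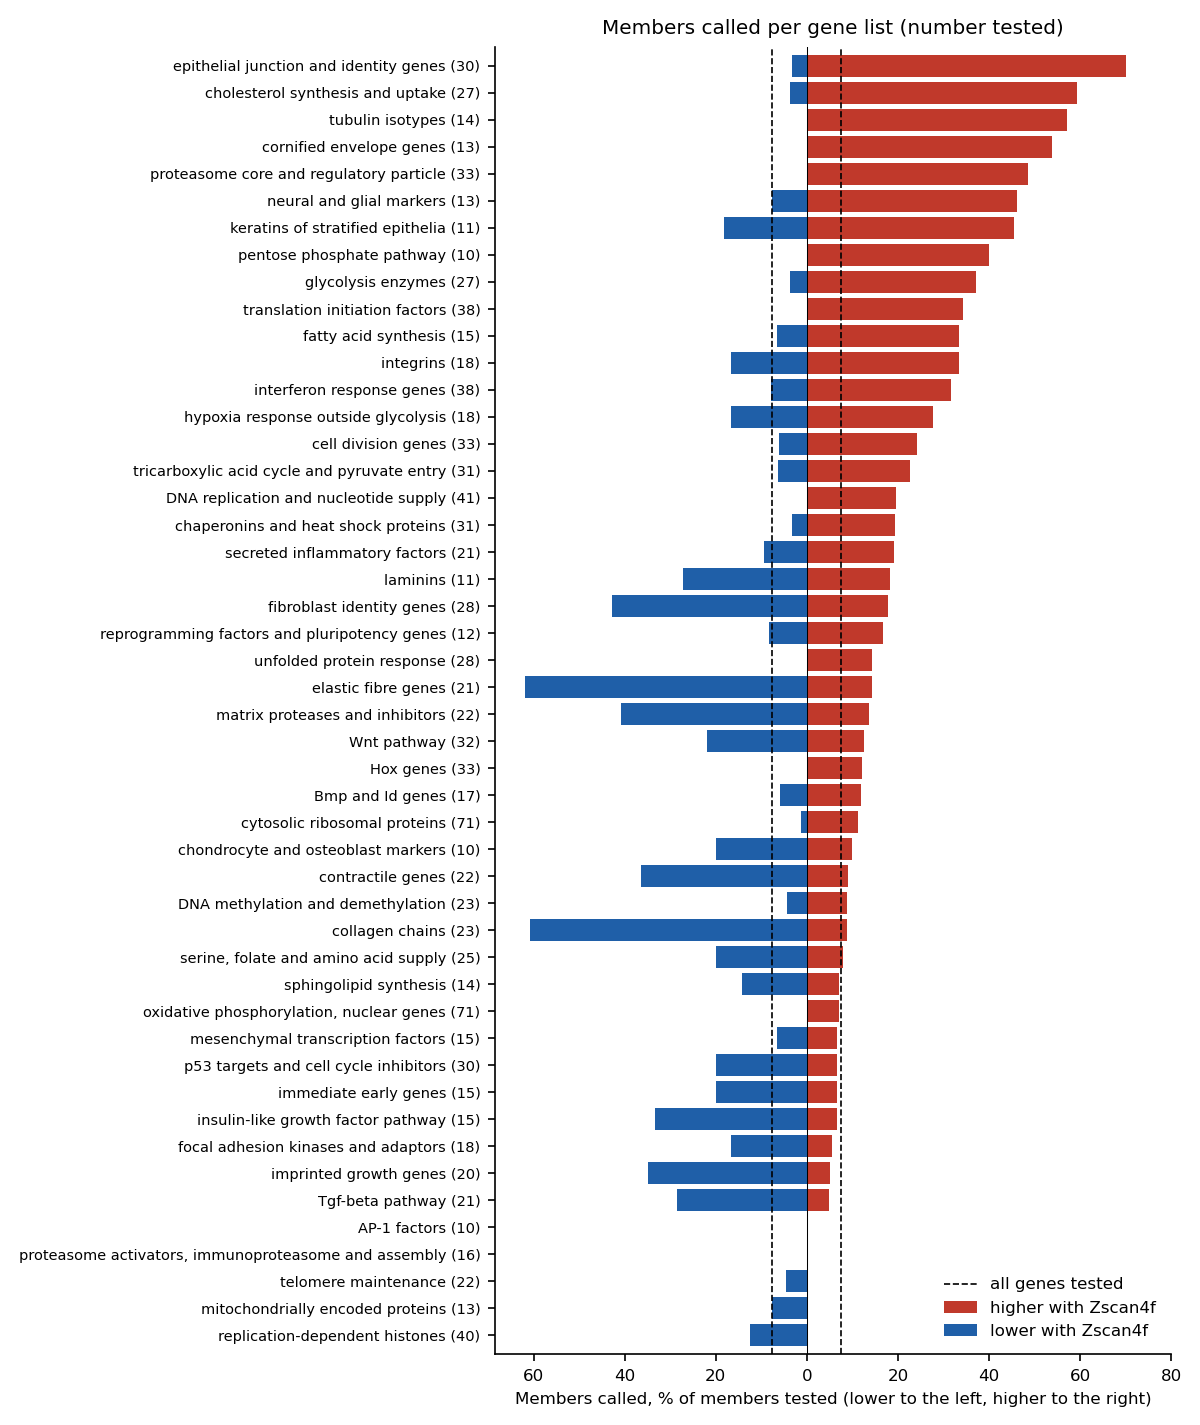
Share of tested members called lower (left) and higher (right) with Zscan4f than with Zscan4f3A for each list with at least 10 tested members, whose number stands in parentheses, with dashed lines at the shares over all genes (7.64% and 7.48%). Epithelial junction genes have the longest bar to the right and elastic fibre and collagen genes the longest to the left.

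Markers of other cell types were read for their levels, and counts called stand beside 7.48% higher and 7.64% lower over all genes. Macrophage and blood markers had 2 higher and 0 lower of 5 (2 and 0), Cd68 at 20.03, 18.9 and 17.3 against 11.7, 13.5 and 11.7 TPM and Itgam, whose exons overlap another gene on the same strand. Itgam was low, at 1.6, 2.63 and 2.14 against 0.497, 0.968 and 0.291 TPM, and passed the filter on low values only through the Zscan4f group. Its call ended without Zscan4f replicates 2 or 3 (adjusted p up to 0.0601). Summed, the list reached 29.5 to 33.1 TPM with Zscan4f and 22.9 to 24.6 with Zscan4f3A, while the defining genes Ptprc and Adgre1 were nowhere above 0.0843. Endothelial markers had 2 higher and 1 lower of 6 (2 and 1), with Tek at 45.7, 44.6 and 44.7 against 32.2, 31.5 and 31.1 TPM, a summed level of 97.0 to 99.5 against 80.9 to 84.3, and the defining genes Pecam1 and Cdh5 at no more than 0.979 TPM. Erg, an ETS factor known from endothelial cells and named above, was lower (-1.50, adjusted p = 0.002). Neural and glial markers had 6 higher and 1 lower of 13 (6 and 1): Nes, the filament nestin of progenitor cells, was at 82.4, 78.0 and 76.8 against 34.9, 35.9 and 36.4 TPM (1.12, adjusted p = 7.27e-06), and Gap43, a protein of growing axons, at 103, 112 and 112 against 195, 190.1 and 195, while Sox10 and Pax6 reached at most 0.732 TPM and the sum was 1054 to 1087 against 1021 to 1041. Tubb3, another neural marker, was not low, at 156, 161 and 164 against 142, 142 and 147 TPM (0.16, adjusted p = 0.0164). Chondrocyte and osteoblast markers had 1 higher and 2 lower of 10 (1 and 2), with Mgp, an inhibitor of calcification, at 597, 632 and 605 against 1255, 1196 and 1121 TPM and Acan at most 0.120. The sum, Mgp included, was 1301 to 1342 against 1725 to 1870. Col10a1 was lower too (-0.60, adjusted p = 0.00221), while Spp1, known from osteoblasts, was higher (0.34, adjusted p = 0.00202). Sox9, another chondrocyte marker, was at 3.29, 3.31 and 3.17 against 3.79, 4.7 and 4.24 TPM (adjusted p = 0.0915). Skeletal muscle markers had 1 higher and 0 lower of 3 (0 and 0), with Myod1 at 0 in all 9 libraries. Adipocyte markers had 1 higher and 1 lower of 4 (1 and 0). Among them Pparg was at 4.2, 3.19 and 3.33 against 4.23, 3.47 and 3.46 TPM (adjusted p = 0.848). Markers of trophoblast and extraembryonic endoderm had 0 higher and 1 lower of 6 (0 and 1), the lower one being Sparc (-0.21, adjusted p = 0.0137). The call of Sparc ended with no filter on low values and with quantile normalization (adjusted p up to 0.663). The sum of the list, Sparc included, was 6242 to 6802 against 7436 to 8004 TPM (exact two-sided permutation test, p = 0.1, the smallest possible). Members too low to be tested reached at most 0.73 TPM. Cdx2 was at 0 in all 9 libraries and Elf5 at most 0.257 TPM. The part of such cells in the other results was not tested. With single libraries left out, higher members of the neural list numbered 3 instead of 6 without Zscan4f replicate 1.

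The reprogramming factors differed little, and only Sox2 was called. Sox2 was at 492, 445 and 478 TPM with Zscan4f, 553, 586 and 607 with Zscan4f3A and 612, 547 and 564 in control, a log2 fold change of -0.30 with an SE of 0.06 and an adjusted p of 0.00801. Pou5f1 was at 13.3, 15.6 and 12.6 against 13.9, 13.7 and 13.5 TPM (adjusted p = 0.954), Klf4 at 289, 277 and 253 against 307, 302 and 268 (0.49) and Myc at 59.3, 58.6 and 57.9 against 70.0, 61.2 and 52.9 (0.714). RNA of the introduced factors and of the cells' own genes cannot be told apart here. In the list of pluripotency genes 2 higher and 1 lower of 12 (2 and 1) were called, the higher ones being Sall1 and Cd9, a tetraspanin that fibroblasts also make, at 1683 ± 21.4 against 1327 ± 83.9 TPM. Over all genes 7.48% were higher and 7.64% lower.

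Tet2, whose interaction the series is titled for, was at 18.9, 20.4 and 18.6 TPM with Zscan4f, 22.7, 23.6 and 21.2 with Zscan4f3A and 27.2, 31.6 and 26.03 in control. The Zscan4f and Zscan4f3A libraries did not overlap, but the log2 fold change of -0.21 with an SE of 0.08 and an adjusted p of 0.116 did not pass the test, and without the shallow library it was -0.25 (adjusted p = 0.111). Tet1 was at 2.24, 1.99 and 3.32 against 1.43, 2.62 and 3.65 TPM and Tet3 at 22.1, 19.5 and 20.9 against 23.9, 21.9 and 23.4 (adjusted p = 0.984 and 0.177). Of the DNA methylation and demethylation genes 2 higher and 1 lower of 23 (2 and 1) were called, shares near the 7.48% higher and 7.64% lower over all genes. The higher count was 1 when any of control replicates 1, 2 or 3, Zscan4f replicates 1 or 3 or Zscan4f3A replicate 2 was left out. Cxxc5, a zinc finger protein of the CXXC type, was at 4.33, 5.22 and 4.76 against 7.49, 8.09 and 8.32 TPM.

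In the lists that remain, counts stand beside 7.48% of all genes called higher and 7.64% lower. Both shares of the telomere list lay below these. The two-cell-stage list had 0 higher and 1 lower of 8 (0 and 4), the change in count coming from the Zscan4 genes described above, and outside these Ddit4l was at 16.4, 15.8 and 19.97 against 25.4, 28.1 and 23.9 TPM. Of germline genes 1 higher and 0 lower of 2 (0 and 0) were called, the 1 being Prdm1, at 3.28 ± 0.449 against 1.18 ± 0.478 TPM, whose adjusted p rose to at most 0.0749 without Zscan4f replicates 1 or 2 or Zscan4f3A replicates 1 or 3. Telomere maintenance, in which Zscan4 is known to take part, had 0 higher and 1 lower of 22 (0 and 0): Terf2, which caps chromosome ends, was at 28.3, 23.4 and 22.6 against 30.7, 30.7 and 31.6 TPM, with an adjusted p of 0.0357 that rose to 0.0842 without the shallow library and to at most 0.112 without control replicate 3, Zscan4f replicates 2 or 3 or Zscan4f3A replicates 1 or 2. Hox genes had 4 higher and 0 lower of 33 (4 and 1), with Hoxc5 at 15.2 ± 1.21 against 9.70 ± 0.320 TPM.

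The control libraries show where each group stood from cells with neither gene named. Both comparisons against control share those 3 libraries, and each shares libraries with the comparison reported here. By limma, 1384 genes were higher and 1538 lower with Zscan4f than in control, and 3 higher and 2 lower with Zscan4f3A than in control (10 and 6 without the shallow library). The log2 fold change against control of Klk10 was 2.30 (adjusted p = 1.03e-07) with Zscan4f and 0.31 (adjusted p = 0.217) with Zscan4f3A, that of Krt8 1.91 (adjusted p = 4.09e-07) and 0.23 (adjusted p = 0.354), that of Eln -1.97 (adjusted p = 1.58e-07) and -0.10 (adjusted p = 0.585) and that of Ptk2b -2.25 (adjusted p = 4.09e-07) and -0.41 (adjusted p = 0.217). Nudcd3, a cochaperone (ENSMUSG00000053838.14, chromosome 11, 6105691 to 6200415, minus strand), had another pattern: it was at 28.4, 33.1 and 29.96 TPM with Zscan4f, 54.8, 56.2 and 55.9 with Zscan4f3A and 33.7, 28.2 and 28.6 in control, so that the variant libraries alone stood high, and it was lower with Zscan4f than with Zscan4f3A by a log2 fold change of -0.85 with an SE of 0.08 and an adjusted p of 0.000282.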

How the data were processed

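Total RNA of 9 libraries was sequenced, and samples were grouped by their titles. Reads were aligned with HISAT2 2.1.0 and quantified with StringTie, per the submitters' processing notes. The deposited TPM values are corrected for gene length and scaled to 1 sum per library, the deposited FPKM values are corrected for gene length and depth, and the deposited coverage signal is mean read depth, whose ratio to FPKM gave the depth. The sources used here name no build or annotation; 97.5% of the gene IDs found in GENCODE M21 had identical GRCm38 coordinates. No step is stated to use strand, and exons of 69 of the 227 named genes overlap another gene.

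Rows of 1 gene ID were summed. The 15837 genes reaching 1 TPM in 3 or more of the 9 libraries were fitted as log2(TPM + 1) with limma 3.58.1 (R 4.3.3) on all 9 libraries, with group means and a trended prior variance, two-sided, and called below a Benjamini-Hochberg adjusted p of 0.05. Code was tested on simulated data. Named genes were Zscan4a to Zscan4f, Tet1 to Tet3 and the OSKM factors; the 15 largest log2 fold changes per direction among called genes averaging 5 TPM or more in the higher group, with no overlap and a gene name, also without Zscan4f3A replicate 3; up to 4 called members of smallest p per list; and the 5 called genes per direction of highest TPM. List members named without values are called members. The groups, 58 gene lists and rule were chosen with earlier results of these data known. Promoters come from RefSeq, and motifs other than TGCACAC were chosen after the data were seen. Alternatives were a pseudocount of 0.1, no filter or TPM of at least 5, FPKM, median-of-ratios and quantile scaling, only the 2 groups, no trend, robust prior, quality weights, a replicate block, a fold of 1.5, mitochondrial, ribosomal RNA and Zscan4 genes left out, and each library left out.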

Additional observations from a re-analysis of the deposited data

How the results depend on the processing

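The counts of 1185 higher and 1210 lower genes stayed within 1.5 times those values under the alternatives of scaling, filter, pseudocount, fit and library weight that were run. At a fold change of at least 1.5 they were 275 and 382, and the called members of the gene lists 58 higher and 51 lower. Leaving out single libraries gave 708 to 1087 higher and 851 to 1086 lower genes: 708 higher without Zscan4f replicate 3 and 758 without Zscan4f replicate 1. Chosen after seeing the data, median-of-ratios scaling with Zscan4f3A replicate 3 left out gave 962 and 1030, and protein-coding genes alone 1275 and 1232. The labels number the replicates 1 to 3 in each group. Same-numbered Zscan4f and Zscan4f3A libraries did not deviate together (correlations 0, 0.030 and 0.003). With 3 libraries a group and no control libraries in it, this check cannot settle whether the numbers stand for pairs. With the replicate number as a block 908 genes were higher and 975 lower. Of 216 named genes called, 177 were called under every alternative that gave them a value and 39 lost the call in at least 1. Reversed were Zscan4c, Zscan4d and Zscan4e, at -0.70, -0.79 and -1.07 without Zscan4f3A replicate 3, with or without median-of-ratios scaling, since that library lists them at 0. Over all libraries left out singly they ranged up to 3.09, 1.59 and 1.58. Depth limits low genes most: in Zscan4f3A replicate 3, 22795 genes had a TPM above 0, against 24605 to 25443 in the other 8 libraries.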
